A study of Homo sapiens with 30 samples.

Results

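The Notch pathway genes followed here were 10 of the 20098 protein-coding genes of the annotation. They were taken by name: the receptors NOTCH1, NOTCH2, NOTCH3 and NOTCH4, the ligands JAG1, JAG2, DLL1 and DLL4, and the target genes HES1 and HEY1. The data are chromatin immunoprecipitation with sequencing (ChIP-seq) of MDA-MB-231, a human cell line derived from triple-negative breast cancer. Antibodies to SAP30, to SIN3A and to SIN3B were used in parental cells, SAP30 being a subunit of the SIN3 corepressor complex and the other 2 its scaffolds. RNA polymerase II (Pol II), trimethylated lysine 4 of histone H3 (H3K4me3) and acetylated lysine 9 of histone H3 (H3K9Ac) were profiled in parental cells and in SAP30 knockout cells (SAP30-KO1). The knockout was made with CRISPR/Cas9, and according to the study's methods several single-cell clones were mixed. The labels give the same medium for both lines and no treatment. SAP30 was profiled in parental cells alone, so the knockout itself could not be checked in these lists. Each of the 9 groups had 2 libraries, and 12 of the 30 samples, inputs and total histone H3, had no list and were not analysed here. Nothing in the labels says that replicates came from separate cultures, so p-values measure only the spread between these libraries, which may be technical.

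Notch receptors are cell surface proteins that are cut when a ligand on a neighbouring cell binds them. The freed intracellular part enters the nucleus, where it joins the DNA-binding protein RBPJ and turns RBPJ from a repressor into an activator of genes such as HES1 and HEY1. Without Notch, RBPJ recruits corepressors with histone deacetylases, and the SIN3 complex is a corepressor of that kind. In breast cancer cells the pathway is known for its part in stem-like growth, invasion and signals to blood vessels.

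Each library was a list of peak summits, the single bases given as the tops of called peaks, with a score that is the −log10 of the q-value. The lists held 10861 to 54622 summits, fewest for SIN3A and most for H3K9Ac. The sequencing depth is unknown, so scores were compared only as ranks within a list. A percent rank of 0 is the best-scored summit of a list and 100 the worst. A gene had a promoter peak where a summit lay within 1000 bp of a start site of one of its basic transcripts, and the best-scored summit there gave its rank. All 5 mesenchymal markers examined (VIM, CD44, EGFR, AXL and ZEB1) had promoter peaks of H3K4me3 and Pol II in both parental libraries. Of 5 luminal markers, 4 had H3K4me3 (not GATA3) and 1, EPCAM, had Pol II, while none of PTPRC, CDH5 and MYH11, which mark blood, endothelial and smooth muscle cells, had either. A change in few cells and a smaller change in all cells cannot be told apart in such bulk chromatin.

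The 10 genes differed widely in how many lists reached their promoters. NOTCH1 and NOTCH2 had a promoter peak in all 18 lists, JAG1 in 16, HES1 and HEY1 in 14, DLL4 in 13, NOTCH3 in 10, DLL1 in 7 and JAG2 in 5. NOTCH4 had none in any list. In parental cells SAP30 was at 6 of the 10 promoters in both libraries (61.2% of all protein-coding genes), SIN3A at 4 (31.5%), SIN3B at 4 (51.7%), Pol II at 6 (57.7%), H3K4me3 at 9 (63.8%) and H3K9Ac at 5 (61.4%). In SAP30-KO1 cells Pol II was at 4 of the 10 (53.9%), H3K4me3 at 9 (62.8%) and H3K9Ac at 5 (61.1%). NOTCH1 and NOTCH2 had SAP30, SIN3A and SIN3B together in both libraries (30.2% of all genes). The largest gap between a share of the members and that of all genes was for H3K4me3, which was at every member other than NOTCH4.

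**Figure D1:**
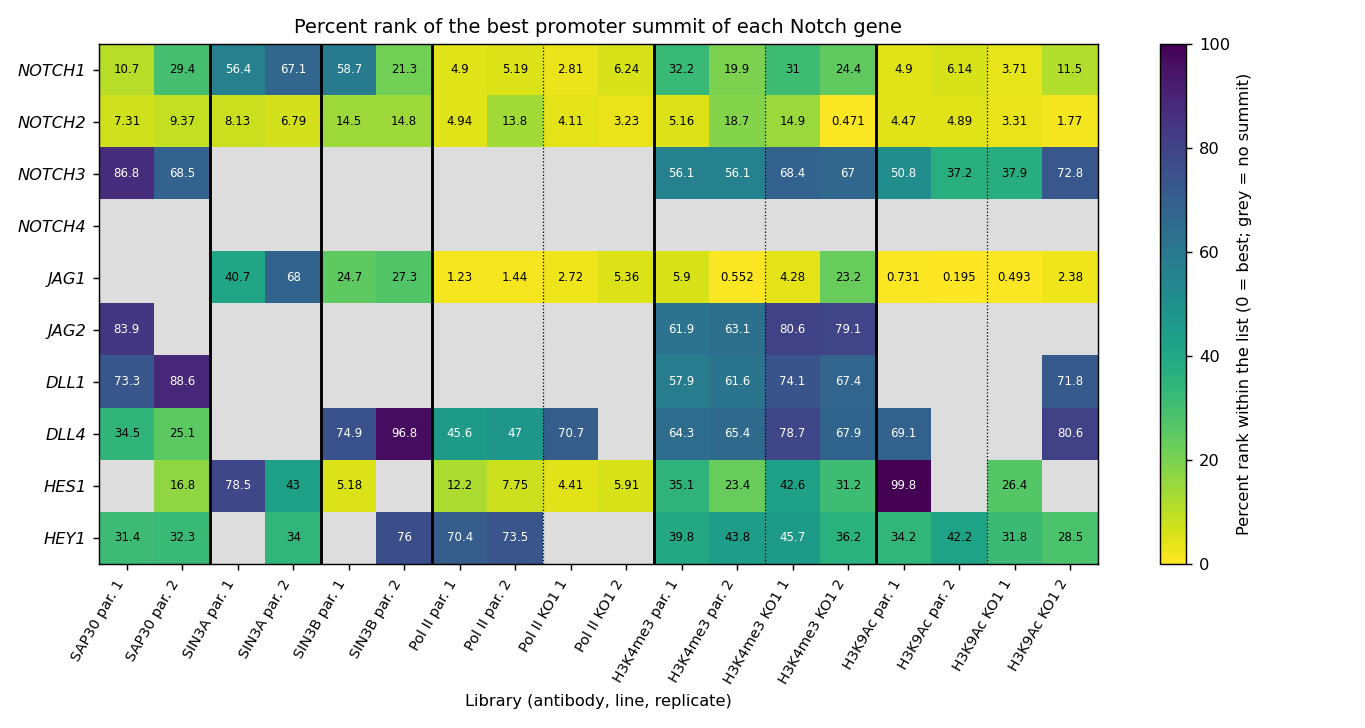
Percent rank of the best promoter summit of each of the 10 genes (rows) in the 18 lists (columns: antibody, line with par. for parental and KO1 for SAP30-KO1, replicate), with 0 the best rank and grey for no summit within 1000 bp. NOTCH1, NOTCH2 and JAG1 have low percent ranks for Pol II and H3K9Ac, whereas NOTCH3, JAG2, DLL1 and DLL4 have H3K4me3 at 56.1 to 80.6% and NOTCH4 is grey throughout.

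JAG1 encodes a ligand with a Serrate-type extracellular part and lies at chr20:10618332-10654647 on the minus strand (GRCh37, as for all positions here), with its start at 10654647. It had the best mean parental Pol II, H3K4me3 and H3K9Ac ranks of the members, and it was the single member with SIN3A and SIN3B promoter peaks in both libraries but SAP30 in neither, a combination found at 37 of 20098 genes (0.184%). SIN3A ranked 40.7% and 68.0% there, and SIN3B 24.7% and 27.3%. The best-ranked summits of all 3 proteins at JAG1 lay outside the promoter window, together in an intron. Distances are from the canonical start, negative upstream and positive into the gene. SAP30 peaked at 2410 and 2389 bp, with ranks of 3.44% and 1.40%. SIN3A peaked 2407 and 2362 bp downstream at 2.37% and 3.94%, and SIN3B 2387 and 2262 bp downstream at 7.48% and 22.9%. The 6 summits fell within 148 bp of each other. With a promoter window of 3000 bp, JAG1 therefore counted as having SAP30.

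Sites of this kind were uncommon. Of the 35001 summits of the first SAP30 list, 2589 (7.40%) had a summit of each of the other 5 SAP30, SIN3A and SIN3B lists within 200 bp, and 190 of these 2589 (7.34%) lay over 1000 bp from the start of every protein-coding or long noncoding RNA gene. Within 50 kb of the 10 genes there were 4 such shared sites, and 3 of them were over 1000 bp from every start. They were the JAG1 intronic site, 1106 bp from the start of the long noncoding RNA gene ENSG00000270792, a site 69307 bp downstream of the JAG1 start inside SLX4IP, and a site at -26114 bp from NOTCH1 in no annotated gene. The fourth lay upstream of HES1.

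The sequences below are shown because they hold the summits on which the account of JAG1 and HES1 turns. They were read from GRCh37 on the strand of the gene, 5′ to 3′. Capitals mark TGGGAA or TTCCCA, the core of the RBPJ site on either strand, and TGANTCA, the site of AP-1 factors, and matches are descriptions of the letters only. The first 201 bases (chr20:10652148-10652348, minus strand) are centred on the SAP30 summits in the JAG1 intron and hold 1 AP-1 match, as do 18.8% of the 28749 windows around SAP30 summits found in both libraries, and no RBPJ core, which 15.7% hold. They also hold 1 E-box CACGTG, a palindrome, as do 8.67% of those windows.
JAG1 intronic site: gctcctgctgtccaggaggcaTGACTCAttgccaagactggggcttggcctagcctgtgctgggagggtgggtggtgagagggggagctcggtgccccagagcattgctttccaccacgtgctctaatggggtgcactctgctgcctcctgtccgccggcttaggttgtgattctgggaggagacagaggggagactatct
The 201 bases around the SAP30 summits upstream of HES1 (chr3:193852774-193852974, plus strand) hold neither of these matches but 1 CACGTG and 2 GC boxes, GGGCGG on either strand, a box that 34.8% of the windows hold.
HES1 upstream site: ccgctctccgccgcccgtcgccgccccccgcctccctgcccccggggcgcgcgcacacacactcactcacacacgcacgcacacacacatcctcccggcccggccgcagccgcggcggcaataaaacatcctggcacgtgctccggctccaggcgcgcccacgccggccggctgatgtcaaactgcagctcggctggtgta
Of the 10 windows of 250 bases before the start sites, those of HES1 and HEY1 held the RBPJ core, 2 matches each, against 19.7% of all genes with at least 1. The HES1 window (chr3:193853687-193853936, plus strand) shows both in the same orientation.
HES1 promoter: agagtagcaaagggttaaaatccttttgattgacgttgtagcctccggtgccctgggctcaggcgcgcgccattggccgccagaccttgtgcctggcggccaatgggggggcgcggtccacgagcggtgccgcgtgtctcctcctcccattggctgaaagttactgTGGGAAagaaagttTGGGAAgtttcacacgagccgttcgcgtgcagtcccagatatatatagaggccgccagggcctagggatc
The JAG1 window (chr20:10654648-10654897, minus strand) held none.
JAG1 promoter: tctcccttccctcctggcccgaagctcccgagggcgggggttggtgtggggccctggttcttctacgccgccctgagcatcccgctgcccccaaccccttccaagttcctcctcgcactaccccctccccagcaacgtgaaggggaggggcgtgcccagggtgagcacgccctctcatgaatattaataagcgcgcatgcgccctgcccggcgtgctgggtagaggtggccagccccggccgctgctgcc

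At JAG1 the H3K9Ac summit moved across the start site between the lines. In parental cells it lay at 534 and 613 bp, with ranks of 0.731% and 0.195%. In SAP30-KO1 cells it lay at -722 and -699 bp, with ranks of 0.493% and 2.38%. The replicates of a line were at most 79 bp apart and the lines at least 1233 bp apart. A promoter summit counted as shifted when every distance between lines exceeded the largest within a line by over 250 bp, which held for JAG1 and 2.22% of the 12048 genes with H3K9Ac in all 4 lists. A distance between lines as large as that of JAG1 was found for 25 of these genes (0.208%). No other member had a shifted H3K9Ac summit, and none had a shifted summit of Pol II (1.48% of 10706 genes) or H3K4me3 (1.3% of 12531 genes). The ranks of H3K9Ac at JAG1 overlapped between the lines. Leaving out a replicate cannot undo a shift under this rule, so that setting was no test of it. With a 500 bp window, which does not reach the positions, the shift could not be tested. The lost and gained H3K9Ac summits at this start had been seen earlier in the same lists, so the distances describe them and are no independent evidence. A summit is a single base, so its position does not show whether acetylation on either side of the start changed.

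Both H3K9Ac positions overlap ENSG00000270792, which runs in the opposite direction to JAG1. The parental position also covers the end of the coding part of the JAG1 exon at the start and the intron after it. The SAP30-KO1 position lies upstream of JAG1. The 201 bases around the SAP30-KO1 position (chr20:10655258-10655458, minus strand) hold 1 RBPJ core on the opposite strand, and those around the parental position hold none. Of the windows of this length around SAP30 summits 15.7% hold a core, and the share for H3K9Ac summits was not computed. A link of the match to the summit was not tested.
JAG1 H3K9Ac in SAP30-KO1: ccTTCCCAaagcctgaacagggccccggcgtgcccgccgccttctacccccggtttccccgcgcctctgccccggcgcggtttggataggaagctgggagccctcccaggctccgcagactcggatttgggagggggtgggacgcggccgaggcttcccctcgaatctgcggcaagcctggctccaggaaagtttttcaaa
The other readouts at JAG1 stayed in place. Pol II peaked 34 to 52 bp downstream of the start in all 4 libraries, and H3K4me3 515 to 616 bp downstream. Pol II ranked 1.23% and 1.44% in parental cells and 2.72% and 5.36% in SAP30-KO1 cells, so its ranks did not overlap between the lines. H3K4me3 ranked 5.90% and 0.552% in parental and 4.28% and 23.2% in SAP30-KO1 cells, which overlapped.

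**Figure D2:**
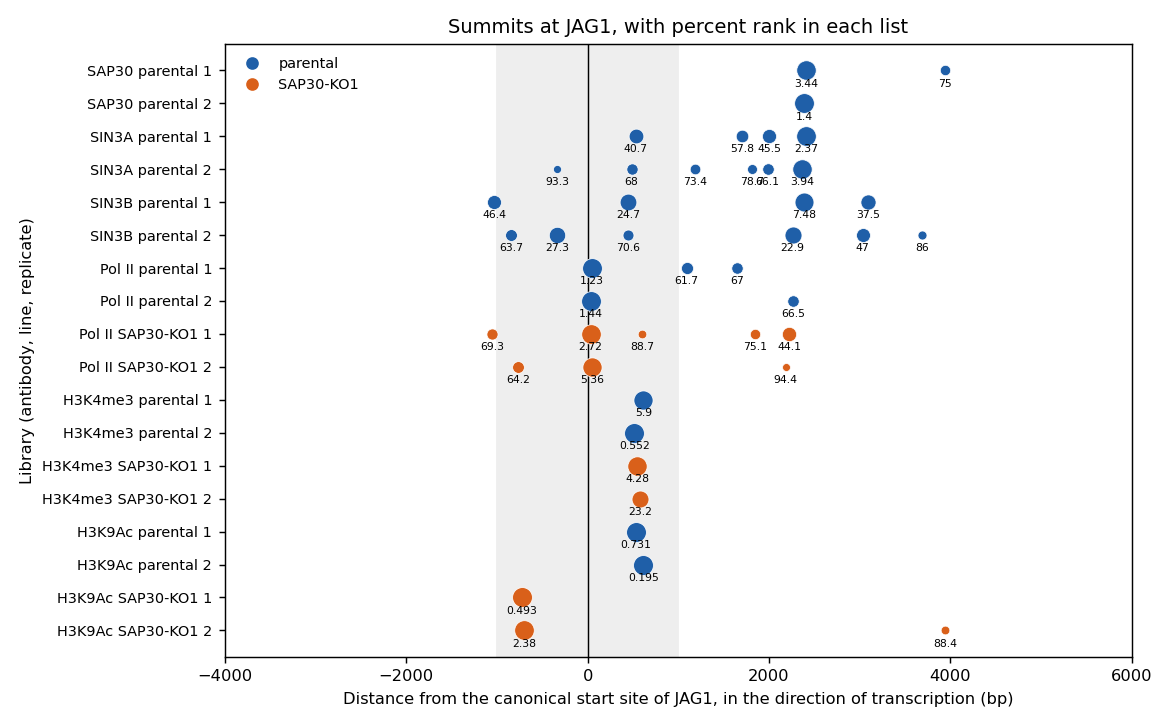
Summits around the JAG1 start site in the 18 lists (rows), by distance from the start in bp with positive values inside the gene. Larger points have better ranks, the number under each is its percent rank, and grey marks 1000 bp on both sides. The SAP30, SIN3A and SIN3B summits gather at 2262 to 2410 bp, and the H3K9Ac summits lie at 534 and 613 bp in parental and at -722 and -699 bp in SAP30-KO1 cells.

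JAG2 and DLL1 had H3K4me3 in all 4 libraries, and few other promoter peaks. JAG2, the second Serrate-type ligand (chr14:105607319-105635161, minus strand), had H3K4me3 at 61.9% and 63.1% in parental cells and at 80.6% and 79.1% in SAP30-KO1 cells. It had no promoter peak of Pol II, H3K9Ac, SIN3A or SIN3B in any library, and SAP30 in 1 of 2 libraries at 83.9%. DLL1, a Delta-type ligand (chr6:170591294-170615653, minus strand, start at 170600166), had H3K4me3 at 57.9% and 61.6% in parental and 74.1% and 67.4% in SAP30-KO1 cells. SAP30 was present at DLL1 at 73.3% and 88.6% without SIN3A or SIN3B, and H3K9Ac appeared in 1 library, SAP30-KO1 replicate 2, at 71.8%. In both genes the 2 H3K4me3 values of one line lay apart from the 2 of the other.

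DLL4, the Delta-type ligand known for its part in vessel sprouting (chr15:41221538-41231271, plus strand), was the ligand gene after JAG1 with the most readouts. SAP30 ranked 34.5% and 25.1% within 64 bp downstream of the start, SIN3B ranked 74.9% and 96.8%, and SIN3A had no peak. Pol II ranked 45.6% and 47.0% in parental cells, 70.7% in SAP30-KO1 replicate 1 and had no promoter summit in SAP30-KO1 replicate 2. H3K4me3 ranked 64.3% and 65.4% in parental cells and 78.7% and 67.9% in SAP30-KO1 cells, and H3K9Ac was present in 1 library of each line.

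The receptor genes fell into genes with every readout and genes with few. NOTCH1 (chr9:139388885-139440500, minus strand) had SAP30 at 10.7% and 29.4%, SIN3A at 56.4% and 67.1% and SIN3B at 58.7% and 21.3%. Its Pol II ranks were 4.90% and 5.19% in parental and 2.81% and 6.24% in SAP30-KO1 cells, its H3K4me3 ranks 32.2% and 19.9% against 31.01% and 24.4%, and its H3K9Ac ranks 4.90% and 6.14% against 3.71% and 11.5%. All 3 overlapped between the lines. The best SAP30 summit lay at 322 bp in one library and -826 bp in the other, and those of SIN3B at 740 and -715 bp, so at NOTCH1 replicates of 1 protein were 1148 and 1455 bp apart.

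NOTCH2 (chr1:120454176-120643366, minus strand, start at 120612276) had peaks of all 3 complex proteins at better ranks than NOTCH1 did. SAP30 ranked 7.31% and 9.37%, SIN3A 8.13% and 6.79% and SIN3B 14.5% and 14.8%. SIN3A and SIN3B summits lay 15 to 130 bp from each other, while SAP30 lay 661 to 999 bp from both, farther into the gene. The SAP30 summit of replicate 2 lay 1009 bp from the canonical start. With canonical starts alone, NOTCH2 therefore did not count as having SAP30 in both libraries. In SAP30-KO1 cells Pol II ranked 4.11% and 3.23% against 4.94% and 13.8% in parental cells, and H3K9Ac 3.31% and 1.77% against 4.47% and 4.89%. Both were better ranked in SAP30-KO1 without overlap, although 1 parental library set most of the Pol II difference. H3K4me3 spread widely within each line, from 5.16% to 18.7% in parental and from 0.471% to 14.9% in SAP30-KO1 cells. The values of NOTCH2 are uncertain, since the window of 1000 bp on both sides of its start also aligned to chr1:145208112-145210148, where the NOTCH2NL genes are annotated. The alignment was 2044 positions long with gaps counted, at 99.15% identity. The sources used here do not say how reads matching both places were counted. The same window of no other member aligned elsewhere.

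NOTCH3 (chr19:15269849-15311806, minus strand) had SAP30 at 86.8% and 68.5% and neither SIN3A nor SIN3B, as DLL1 did, a combination of 4.92% of all genes. It had no Pol II promoter peak in any of the 4 libraries. H3K4me3 ranked 56.1% in both parental libraries and 68.4% and 67.0% in SAP30-KO1 cells, so it stood apart by more than the replicates of either line differed. H3K9Ac ranked 50.8% and 37.2% in parental and 37.9% and 72.8% in SAP30-KO1 cells and overlapped. NOTCH3, JAG2 and DLL1 thus had H3K4me3 in both parental libraries and Pol II in neither, as 7.9% of the 12825 genes with H3K4me3 did. The 250 bases before the NOTCH3 start (chr19:15311807-15312056, minus strand) are shown as the promoter of a member with H3K4me3 and no Pol II peak. They are 78.0% G and C, more than in 91.3% of genes, and hold 5 GC boxes and no RBPJ core.
NOTCH3 promoter: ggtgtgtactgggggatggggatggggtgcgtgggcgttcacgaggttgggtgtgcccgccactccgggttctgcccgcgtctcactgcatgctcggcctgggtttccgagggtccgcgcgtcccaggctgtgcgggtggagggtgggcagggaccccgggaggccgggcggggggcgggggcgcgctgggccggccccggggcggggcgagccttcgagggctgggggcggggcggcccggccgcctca

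NOTCH4, a receptor gene known for its expression in endothelium (chr6:32162620-32191844, minus strand), had no promoter peak of any kind. Its upstream window had a CpG observed to expected ratio of 0.155, lower than that of the other 9 members, which ranged from 0.592 to 0.941 against a median of 0.747 over all genes. The nearest H3K4me3 summits lay 27828 to 27895 bp downstream of the start, by the 3′ end of the gene.

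The target genes HES1 and HEY1 encode basic helix-loop-helix repressors. At HES1 (chr3:193853937-193856521, plus strand), the SAP30, SIN3A and SIN3B lists shared a site just outside the promoter window and 137 bp from the start of the long noncoding RNA gene ENSG00000289385. SAP30 peaked there at -1066 and -1061 bp with ranks of 1.13% and 1.85%. SIN3A peaked at -1033 and -1015 bp with ranks of 2.20% and 26.8%, and SIN3B at -1129 and -1097 bp with ranks of 5.18% and 24.2%. Nearer to the start, SAP30 was present in 1 of 2 libraries (16.8%), SIN3B in 1 (5.18%) and SIN3A in both (78.5% and 43.0%). In SIN3B replicate 1 the upstream summit and that near the start had the same printed rank, so these may not be separate measures. In that list 5.13% of neighbouring summits within 2000 bp had equal scores. With a window of 3000 bp, HES1 counted as having all 3 proteins in both libraries.

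Pol II at HES1 peaked 24 to 81 bp downstream of the start in all 4 libraries. It ranked 12.2% and 7.75% in parental and 4.41% and 5.91% in SAP30-KO1 cells, better without overlap. H3K4me3 ranked 35.1% and 23.4% against 42.6% and 31.2%, which overlapped. Within the promoter window H3K9Ac was listed in parental replicate 1 (99.8%) and SAP30-KO1 replicate 1 (26.4%) alone. Outside it, all 4 libraries had an H3K9Ac summit with ranks of 15.1 to 20.3% between -1991 and -1631 bp.

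HEY1, on chromosome 8, shares its promoter region with the long noncoding RNA gene LINC01607, which starts upstream of it on the opposite strand. SAP30 ranked 31.4% and 32.3% at -840 and -832 bp, within LINC01607. SIN3A and SIN3B were present in replicate 2 only, at 34.0% and 76.0%. Pol II was listed at -681 and -690 bp in the parental libraries, with ranks of 70.4% and 73.5%, and within 1000 bp of no HEY1 start in either SAP30-KO1 library. Such a loss was found for 2.33% of the 11595 genes with Pol II in both parental libraries, and HEY1 was the single member. That share covers genes of every rank, and the HEY1 summits were poorly ranked. Of the 10706 genes with Pol II in all 4 libraries, 775 had a parental rank between 50 and 75%. The share of losses among genes of like rank was not computed. No member gained a Pol II promoter peak (0.249% of 10825 genes), and none gained or lost one of H3K4me3 (1.43% lost, 0.166% gained) or H3K9Ac (0.689% lost, 0.538% gained).

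The chromatin marks at HEY1 were kept. H3K4me3 ranked 39.8% and 43.8% in parental and 45.7% and 36.2% in SAP30-KO1 cells, which overlapped. H3K9Ac ranked 34.2% and 42.2% in parental and 31.8% and 28.5% in SAP30-KO1 cells, better without overlap. H3K9Ac summits lay between -892 and -771 bp in all 4 libraries and between 193 and 243 bp in all but SAP30-KO1 replicate 1, and which ranked best varied between libraries.

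**Figure D3:**
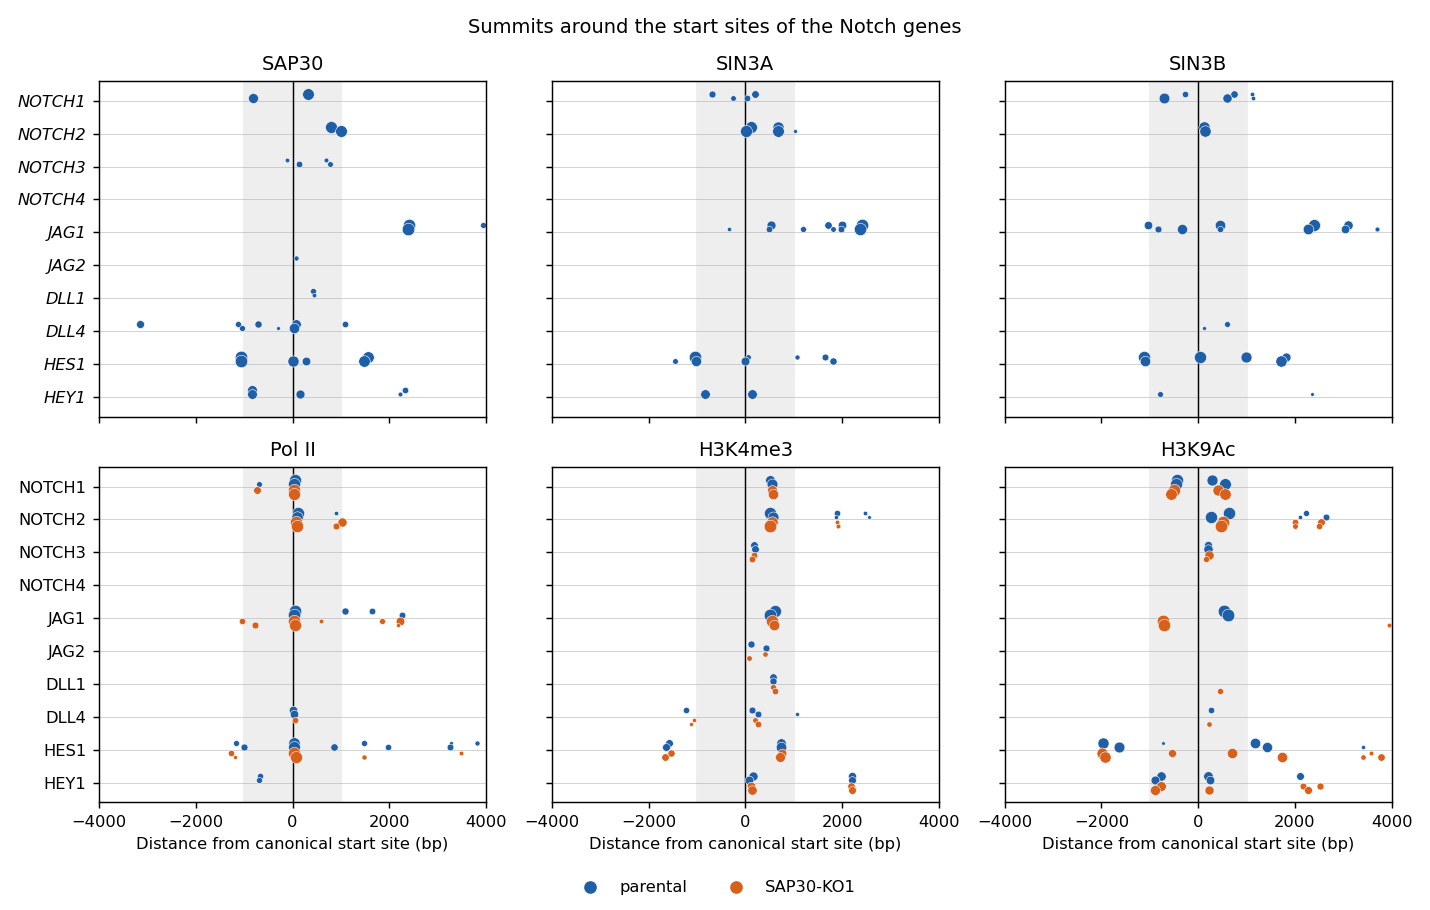
Summits around the canonical start site of each of the 10 genes (rows), 1 panel per antibody, by distance in bp in the direction of transcription. Blue is parental and orange SAP30-KO1, each replicate has its own line, larger points have better ranks and grey marks 1000 bp on both sides. Pol II sits by the start of NOTCH1, NOTCH2, JAG1 and HES1, no summit is drawn at NOTCH4, and SAP30 peaks at 2410 and 2389 bp in JAG1.

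The distance between SAP30 and the SIN3 proteins differed from promoter to promoter. Summits of different proteins could be compared at NOTCH1, NOTCH2, JAG1, DLL4, HES1 and HEY1, and NOTCH1 and NOTCH2 gave most pairs of libraries. They were a median of 560.5 bp apart. Replicates of 1 protein were a median of 130.5 bp apart, over these genes and also NOTCH3 and DLL1, so the medians cover unlike sets. At HES1 the proteins near the start were 17 to 54 bp apart, and at NOTCH1 SAP30 and SIN3B 111 to 1566 bp. At HEY1, where SIN3A and SIN3B were each in 1 library, SAP30 lay 49 to 57 bp from SIN3B but 966 to 974 bp from SIN3A. SIN3A and SIN3B were 917 bp apart there. The median between proteins depended on the window. It was 55 bp with 500 bp and 145 bp with 3000 bp, in which the JAG1 intronic and HES1 upstream sites were included.

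The change in SAP30-KO1 was then read from the ranks of the genes with a promoter peak in all 4 libraries of a readout. For Pol II these were NOTCH1, NOTCH2, JAG1 and HES1, for H3K4me3 all members but NOTCH4, and for H3K9Ac NOTCH1, NOTCH2, NOTCH3, JAG1 and HEY1 (53.3%, 62.3% and 59.9% of all genes). Pol II was worse ranked in both SAP30-KO1 libraries than in both parental ones at JAG1 (24.2% of 10706 genes) and better at NOTCH2 and HES1 (15.4%). H3K4me3 was worse at NOTCH3, JAG2, DLL1 and DLL4 (28.1% of 12531 genes) and better at none (11.5%). H3K9Ac was better at NOTCH2 and HEY1 (16.4% of 12048 genes) and worse at none (22.1%).

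The 4 genes with worse H3K4me3 ranks were those with the poorest parental ranks among the members. Their mean percent rank was higher in SAP30-KO1 by 11.6 for NOTCH3, 17.4 for JAG2, 10.999 for DLL1 and 8.51 for DLL4. Over all genes the median difference was 2.09, and over the 1263 genes with a parental rank between 50 and 75% it was 4.55, with 55.3% of these genes worse without overlap. Being worse ranked was thus common among genes of such ranks. The H3K4me3 lists of SAP30-KO1 held 20735 and 23350 summits and the parental ones 24079 and 22393, and with both lines limited to the shortest of these lists the same 4 genes were worse ranked, while HEY1 was better ranked.

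No member passed the test across all genes. limma on normal scores of the ranks, with Benjamini-Hochberg adjustment, called 0 of 10706 genes for Pol II, 0 of 12531 for H3K4me3 and 1 of 12048 (0.0083%) for H3K9Ac, while 929, 1011 and 1028 genes had an unadjusted p under 0.05. On this scale, where a positive difference is a better rank in SAP30-KO1, JAG2 H3K4me3 differed by -0.43 ± 0.18 (SE, limma adjusted p = 0.668) and NOTCH3 H3K4me3 by -0.26 ± 0.19 (limma adjusted p = 0.804). JAG1 Pol II differed by -0.55 ± 0.38 (limma adjusted p = 0.711), NOTCH2 Pol II by 0.53 ± 0.41 (limma adjusted p = 0.738) and HES1 Pol II by 0.43 ± 0.38 (limma adjusted p = 0.780). For H3K9Ac, NOTCH2 differed by 0.44 ± 0.31 (limma adjusted p = 0.736) and HEY1 by 0.32 ± 0.31 (limma adjusted p = 0.820). With the log2 score, quantile-normalized to 1 distribution over the lists, in place of the rank, 142 genes were called for H3K4me3. JAG2 was among them with a difference of -1.26 (limma adjusted p = 0.0157). The other settings with 2 libraries a group gave JAG2 limma adjusted p-values of 0.213 to 0.752, so the call rests on that scale. Its difference was negative in all 11 alternatives.

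**Figure D4:**
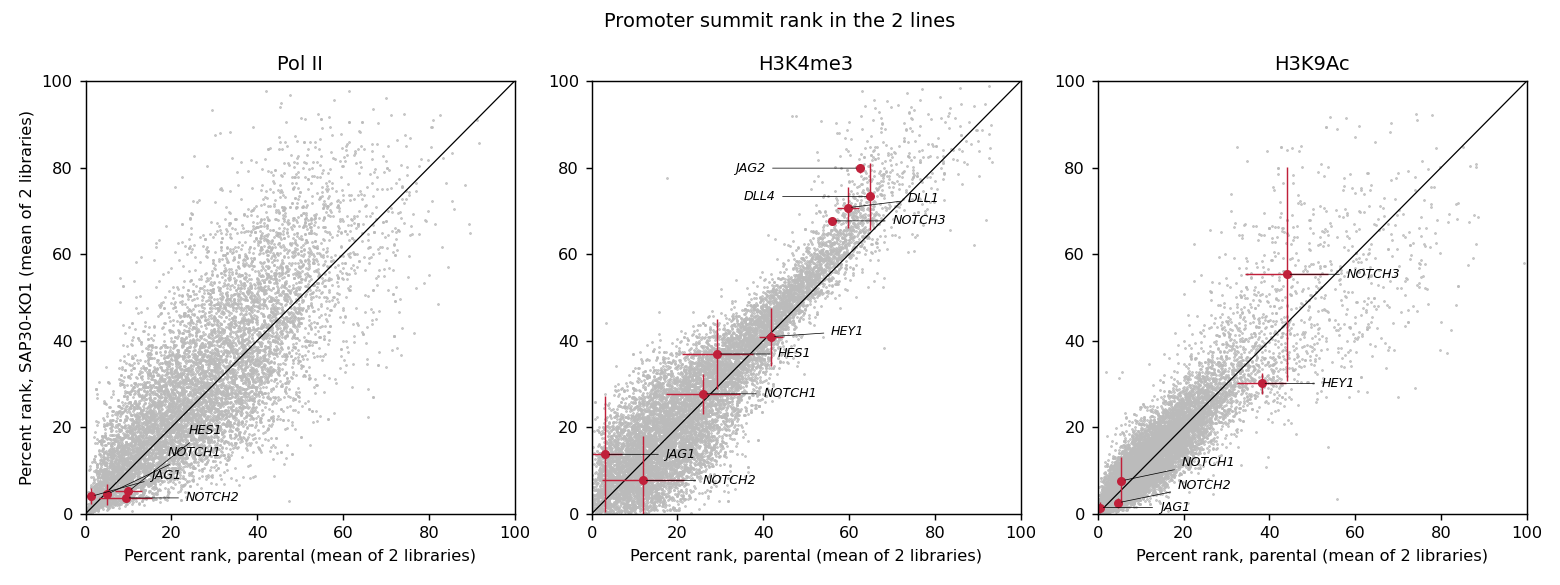
Mean percent rank of the best promoter summit in parental (x axis) and SAP30-KO1 (y axis) libraries for every protein-coding gene with a peak in all 4 lists of a readout (grey) and for the Notch genes (red, bars are the SD of 2 libraries). Points above the line are worse ranked in SAP30-KO1, as NOTCH3, JAG2, DLL1 and DLL4 are for H3K4me3, in a range where most grey points also lie above it.

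Regions around the genes were compared next. Summits of 1 readout within 1000 bp of each other were joined, and regions in the gene or within 50 kb of it were counted. There were 40 Pol II regions, 31 of them in both parental libraries, and 4 were in neither SAP30-KO1 library (8.61% of all such regions). They were the HEY1 promoter region, 1 at NUDT14 upstream of JAG2, and 2 near NOTCH4 at AGER and TSBP1-AS1, with ranks from 41.5 to 97.5%. The region at AGER had a SAP30-KO1 summit 1581 bp from its midpoint, so its loss depends on the joining distance. No Pol II region was gained (0.889%). Of 40 H3K4me3 regions none was lost (6.22%) or gained (1.26%), and 36 were in all 4 libraries.

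Of 70 H3K9Ac regions, 2 were lost (5.18%) and 2 gained (3.79%). The JAG1 start accounted for 1 of each, the lost and gained positions being those of its shifted summit. The other lost region, with ranks of 80.8 to 99.8%, lay at -41001 bp from JAG1, and the other gained one was at GPSM3 beyond the 3′ end of NOTCH4. With summits within 2000 bp joined, 1 H3K9Ac region was lost and none gained. The SAP30-KO1 and parental positions at the JAG1 start, 1233 bp apart at the nearest, were then joined. The gained region at GPSM3 likewise had a parental summit within that distance, 1732 bp from its midpoint.

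The number of summits inside the 10 gene bodies gave no p under 0.05 for any readout. For Pol II it was 10 and 10 in parental and 12 and 11 in SAP30-KO1 libraries, a ratio of 1.15 (two-sided exact permutation test, p = 0.33). For H3K4me3 it was 16 and 17 against 15 and 15 (ratio 0.909, exact p = 0.33), and for H3K9Ac 14 and 13 against 12 and 16 (ratio 1.04, exact p = 1). With 2 libraries against 2 the smallest possible p is 0.33.

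Other genes of the pathway were read from a list of 45 ligands, glycosyltransferases, proteases, ubiquitin ligases, nuclear factors and targets. In both parental libraries SAP30 was at 39 of them (61.2% of all protein-coding genes), H3K4me3 at 38 (63.8%), H3K9Ac at 34 (61.4%), Pol II at 33 (57.7%), SIN3B at 27 (51.7%) and SIN3A at 19 (31.5%). For Pol II, 8 of the 31 genes with a peak in all 4 libraries were worse ranked in SAP30-KO1 without overlap (24.2% of all genes) and 2 better (15.4%). For H3K4me3, 16 of 35 were worse (28.1%) and 7 better (11.5%). For H3K9Ac, 8 of 33 were worse (22.1%) and 2 better (16.4%). None of these 31, 35 and 33 genes was called by limma for that readout, and none had a shifted summit of it.

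Among the largest Pol II differences of that list were those at NRARP, a feedback inhibitor that is itself a target, whose mean percent rank went from 33.4 to 67.1, and at RFNG, a Fringe glycosyltransferase that modifies the receptors, from 52.7 to 23.6. On the scale of normal scores RFNG differed by 1.496 ± 0.39 (SE, limma adjusted p = 0.361) and NRARP by -0.999 ± 0.40 (limma adjusted p = 0.531). NEURL1B, a ubiquitin ligase that acts on ligands, went from 48.6 to 81.2, and NUMBL, related to NUMB, from 31.4 to 50.8. For H3K4me3, RBPJ itself went from 28.6 to 12.3, NUMB, an inhibitor of the receptors, from 18.4 to 3.64, and POFUT1, which adds fucose to them, from 16.7 to 2.25. Differences of similar size in the other direction were found at DTX4, a Deltex ubiquitin ligase, from 57.1 to 71.7, at MIB2, a ubiquitin ligase acting on ligands, from 11.1 to 25.4, and at the target gene HES5, from 64.0 to 77.6. For H3K9Ac, the target genes HES2 and HEY2 went from 41.9 to 78.6 and from 53.6 to 80.1, and the coactivator gene MAML2 from 12.1 to 34.5. RFNG was better ranked for H3K9Ac, going from 19.5 to 9.30, as was SPEN, an RBPJ corepressor, from 11.7 to 7.32. Of the 45 genes, 1 lost its Pol II promoter peak (2.33% of all genes with one), MAML2. For H3K4me3, DLL3 and NEURL1 lost their promoter peak (1.43%), and NRARP gained one (0.166%). These losses and gains were singled out after their values were seen.

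The protein-coding gene whose 18 promoter ranks were most like those of a member was found by the mean absolute difference in percent rank, with no promoter peak counted as 100. It was LIMS1 for NOTCH1 (mean difference 5.76), TGIF1 for NOTCH2 (3.12), GUCY1A2 for NOTCH3 (4.24) and PPP1R15A for JAG1 (5.94). For JAG2 it was GDF7 (0.546), for DLL1 RAB11FIP4 (2.66), for DLL4 VWA1 (8.85), for HEY1 SLC46A1 (8.09) and for HES1 ADAMTS9 (19.1). NOTCH4 tied with the 6469 genes that had no promoter peak in any list.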

How the data were processed

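ChIP-seq of MDA-MB-231 cells gave 18 deposited lists, 1 per library. Per the labels' processing notes by the submitters, FastQC 0.11.2, Bowtie2 2.3.3.1, Picard and MACS2 2.1.0 were used with hg19. The deposited score is the −log10 of a q-value by the authors' peak caller (lowest 1.30), and depth, MACS2 options and controls are not given in the sources used here. Lists were called per library, not on pooled replicates.

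The 10 genes and all lists were chosen with earlier results of these data known. Start sites came from GENCODE release 44 on GRCh37. Ranks were converted to normal scores and compared with limma 3.58.1 (R 4.3.3), with Benjamini-Hochberg adjustment at 0.05, over all genes with a peak in all 4 lists. The statistics were tested on simulated data. Summits in gene bodies were compared by an exact permutation test. Named genes were the 10 members, at most 6 genes of the wider list per readout by largest difference among those without overlap, and the most alike gene of each member. PECAM1 of the marker list was not annotated among protein-coding genes. Windows around starts were aligned with minimap2 2.31-r1302. Alternatives are given in the closing section. Overlapping transcripts and antisense genes cannot be told apart by these summits. A gene of the wider list that the rule would name is not reported here.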

Additional observations from a re-analysis of the deposited data

How the results depend on the processing

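Depth is unknown, so how many peaks were missed in each list cannot be stated, and 2 libraries a group allow no exact p under 0.33. Of 418 recomputed values, 357 kept their direction and their side of the threshold or stayed within 1.5 times. The cause of the other changes was not tested except where the setting itself gives fewer summits, genes or samples.

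With a window of 500 bp, 3 genes had SAP30, 2 had SIN3B, 4 had H3K4me3 and 2 had H3K9Ac in all libraries, 1 H3K9Ac rank did not overlap, the proteins were 55 bp apart, and limma called 1 gene for Pol II and 5 for H3K9Ac. The shifted H3K9Ac summit was then that of NOTCH1, and JAG1 could not be tested. With 3000 bp the distance was 145 bp. limma called 0 genes for H3K9Ac with 3000 bp, with canonical starts and with the better-ranked 50% of each list. That last setting left 1 gene with SIN3A, 2 with SIN3B and 5 with H3K4me3, 0 H3K4me3 ranks without overlap, and turned NOTCH1 H3K4me3 to 0.0198. With lists limited to the shortest, SAP30 and SIN3B each were at 2 genes. The log2 score gave 142 calls for H3K4me3 and NOTCH1 H3K4me3 at 0.0208, and the limma trend, chosen after seeing the data, 42 calls. Leaving out NOTCH2, also chosen after seeing the data, left 1 H3K9Ac rank without overlap. Joining summits within 500 bp gave 7 lost or gained regions of Pol II, 1 of H3K4me3 and 7 of H3K9Ac. Joining within 2000 bp gave 1 of H3K9Ac, and a limit of 10 kb gave 1 of Pol II.

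Equal replicate numbers did not deviate together (the correlation of replicate differences was 0.0158 in Pol II, -0.0157 in H3K4me3 and 0.0041 in H3K9Ac lists). With the replicate block limma called 43 genes for H3K9Ac, no member among them, and 0 for Pol II and H3K4me3.

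Leaving out 1 replicate gave 3 to 5 Pol II, 5 to 8 H3K4me3 and 2 to 5 H3K9Ac ranks without overlap. With a library left out, such counts can only stay or rise under the rule, so a rise shows nothing about the members. The share over all genes was not computed for these settings. The counts were over 1.5 times higher for Pol II without SAP30-KO1 replicate 2 (5) and, without parental replicate 1 or SAP30-KO1 replicate 1, for H3K4me3 (8 and 7) and H3K9Ac (4 and 5). limma then called 0 to 2 genes for Pol II and 6 to 8 for H3K9Ac, with the lone sample assumed to vary like the other group. Shifted H3K9Ac summits were 1 to 2, HEY1 joining JAG1 without parental replicate 2. Regions lost or gained were 4 to 10 for Pol II (4 without parental replicate 2), 0 to 3 for H3K4me3 (3 without parental replicate 1) and 10 to 11 for H3K9Ac. The rule for regions likewise lets these counts only stay or rise, and their share over all regions was not computed. The H3K9Ac ratio in gene bodies was 0.889 to 1.19, turning without SAP30-KO1 replicate 2, and the distance between proteins 418 to 783 bp. Differences that turned ranged from -0.10 to 0.31 for NOTCH1 Pol II, -0.35 to 0.34 for NOTCH1 H3K4me3, -0.19 to 1.56 for NOTCH2 H3K4me3, -0.18 to 0.0812 for DLL4 H3K4me3, -0.58 to 0.0713 for HES1 H3K4me3, -0.63 to 0.32 for NOTCH1 H3K9Ac and -0.70 to 0.26 for NOTCH3 H3K9Ac.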

Other observations

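The 250 bases before the start sites of the 10 genes were compared with those of all protein-coding genes. JAG2 had the highest share of G and C (81.6%, above 96.8% of genes), and NOTCH4 the lowest (58.0%). HES1 held 3 CCAAT boxes, HEY1 2 and DLL4 1, counted as CCAAT on either strand, a box found at least once in 34.1% of genes, and no member held TATAAA on either strand (9.42% of genes). The window of NOTCH4 held the single AP-1 match, TGANTCA, among the members (4.74% of genes).

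The 2 shared sites of SAP30, SIN3A and SIN3B that lay far from the genes differed in rank. The site upstream of NOTCH1 at chr9:139466614 had ranks from 17.5 to 37.8% over the 6 lists, and the one in SLX4IP at chr20:10585340 from 5.05 to 79.9%.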
